A study of Mus musculus with 4 samples.

Results

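N1b is 1 of 6 neutrophil subsets that the study's authors named in mouse MC38 tumours, and it is described here through the 166 cells that carry this name in the deposited table of cell names. They were 166 of 964 neutrophils and of 4440 CD45+ cells. The other subsets held 144 (N1a), 254 (N2), 220 (N3), 176 (N5) and 4 (N4) cells. N1b cells came from 3 tumours: 148 from aCD40 tumour 1, 14 from aCD40 tumour 2 and 4 from the untreated tumour. Nearly all N1b cells thus came from aCD40 tumours, and 89.2% came from a single animal, while the untreated tumour gave 49 of all 964 neutrophils.

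All mice carried an IL-12p40-IRES-EYFP reporter transgene, the untreated one included. MC38, a mouse colon carcinoma line, was grown in the flank for 7 days. Mice then received 5 mg/kg of an agonist antibody to CD40 (aCD40) into the peritoneum or no treatment, and tumours were taken 2 days later. Tumour cells labelled with 7AAD, a dye of dead cells, were sorted for CD45, the surface protein of all leukocytes, and profiled by inDrops, a droplet method that counts unique molecular identifiers (UMIs). Each tumour gave 4 libraries, which are technical parts of 1 animal and not replicates. Pools 1 and 2 held libraries of both aCD40 tumour 1 and the untreated tumour, whereas aCD40 tumour 2 filled pools 3 and 4 alone, so its animal and its pools cannot be told apart. The labels give neither age nor sex.

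Neutrophils leave the bone marrow with their granules already filled. Transcripts of specific-granule proteins are highest during maturation and decline in circulating cells, while transcripts of chemokines, survival factors and hypoxia genes accumulate in tissue. Interferons induce a further shared programme of antiviral genes in the same cells. CD40 is a receptor of antigen-presenting cells, and its agonists drive them to make interleukin-12 and other cytokines.

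The authors' subset names were given to these same cells, whose transcripts are compared here, and the treated arm has 2 tumours. For that reason no significance test was made between subsets. UMIs were summed over the cells of a subset in each tumour and scaled to counts per 1000000 UMIs of that sum (CPM). A gene is called higher or lower only where N1b differed by at least 2-fold, in the same direction, in both aCD40 tumours separately, with counts under 3 read as 3. Genes needed at least 20 UMIs over both subsets in tumour 1 and 10 in tumour 2. The 95% intervals beside levels, ratios and shares cover counting error only.

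N1b cells held 170078 UMIs in aCD40 tumour 1, 16564 in aCD40 tumour 2 and 2145 in the untreated tumour. The median cell had 1112.5, 1123.5 and 396 UMIs in these 3 tumours. For N1a the medians were 964.5 and 1121.5 in the aCD40 tumours, and N2, N3 and N5 lay between 566 and 1048. No barcode was shared between the 12 libraries. The 14 cells of aCD40 tumour 2 limit which genes could be called.

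N1b made up 21.1% of neutrophils in aCD40 tumour 1 (95% exact binomial interval 18.2 to 24.4, 148 of 700), 6.51% in aCD40 tumour 2 (3.61 to 10.7, 14 of 215) and 8.16% in the untreated tumour (2.27 to 19.6, 4 of 49). Across the 4 libraries of each tumour the shares were 17.5 to 24.1%, 4.08 to 11.3% and 0 to 13.3%. The aCD40 tumours did not overlap each other, and tumour 2 overlapped the untreated tumour. Within pool 1, which held both conditions, N1b was 23.1% of neutrophils in aCD40 tumour 1 and 3.85% in the untreated tumour. Within pool 2 the shares were 19.8% in aCD40 tumour 1 and 13.04% in the untreated tumour, from 3 of 23 cells. As a share of all CD45+ cells N1b made up 12.1%, 0.771% and 0.286% in the 3 tumours, so that aCD40 tumour 1 stood apart from aCD40 tumour 2 by more than tumour 2 did from the untreated one. With 1 untreated tumour the treatment effect on this share was not tested.

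**Figure D1:**
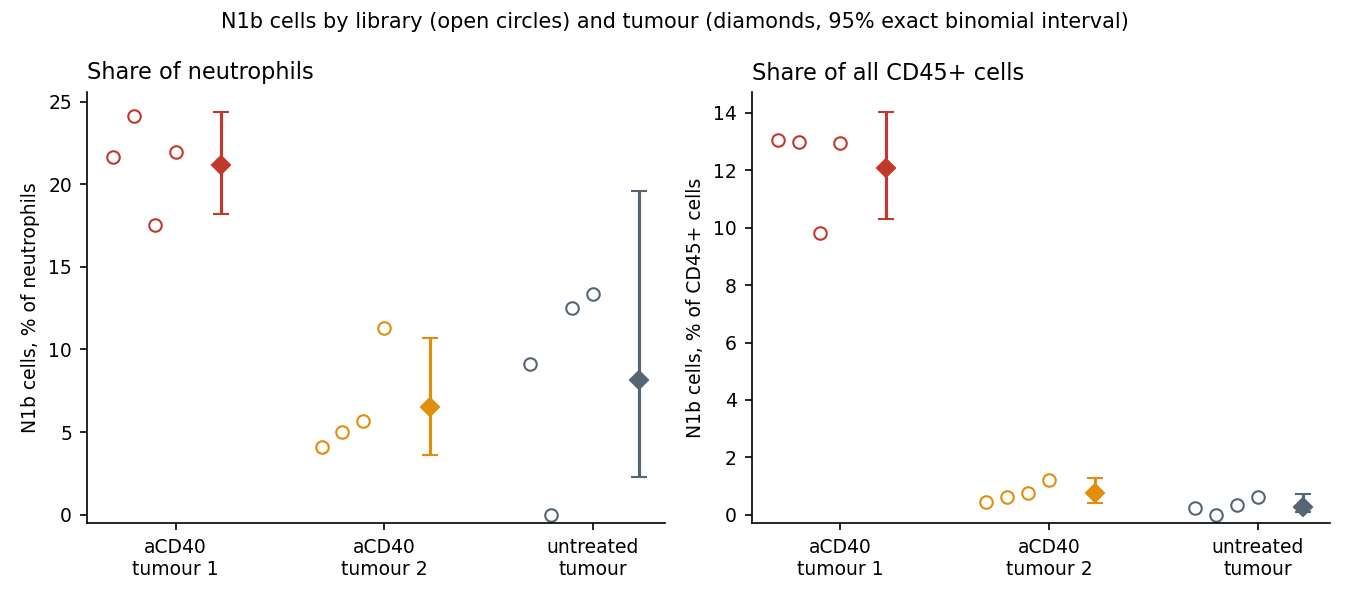
Share of N1b cells among neutrophils (left panel, %) and among all CD45+ cells (right panel, %) in aCD40 tumour 1, aCD40 tumour 2 and the untreated tumour. Open circles are the 4 libraries of a tumour, diamonds the whole tumour with its exact 95% binomial interval; all 4 libraries of aCD40 tumour 1 (17.5 to 24.1% of neutrophils) lie above those of aCD40 tumour 2 (4.08 to 11.3%).

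Levels of neutrophil markers in N1b cells are given first. The names were given to these same cells, so the levels are no independent check of identity. S100a8, a subunit of the calcium-binding antimicrobial complex calprotectin, was at 38071 CPM in N1b cells of aCD40 tumour 1, 35136 CPM in aCD40 tumour 2 and 20979 CPM in the 4 untreated cells, the last between 13240 and 35939 CPM when 1 library was left out. At least 1 S100a8 UMI was found in all N1b cells thinned to 300 UMIs, in all 3 tumours. T cells thinned in the same way carried one in 4.26% and 0.787% of cells in the aCD40 tumours, and in 0 of 124 cells in the untreated tumour, which allows up to 2.42%. Their median depth was 778, 651 and 475.5 UMIs in the 3 tumours. Retnlg, a secreted resistin-like protein of mouse neutrophils, was at 11154, 10324 and 2331 CPM in N1b cells of the 3 tumours. Together S100a8 and S100a9 took 9.20% and 7.64% of all N1b UMIs in aCD40 tumours 1 and 2.

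Neither marker singled N1b out. Retnlg was at 21709 and 25494 CPM in N1a cells of aCD40 tumours 1 and 2, above N1b in both, and at 5752 and 4214 CPM in N2. It was lower again in N3 (5008 and 937 CPM) and in N5 (809 and 893 CPM). S100a8 followed the same order, with 54329 and 50307 CPM in N1a, 26586 and 22341 CPM in N2, 20595 and 10939 CPM in N3, and 7298 and 8366 CPM in N5. Both markers named for N1b were thus present, and both were higher in N1a.

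Markers of other leukocytes were nearly absent from N1b cells. The lists for T cells, NK cells, B cells and basophils or mast cells summed to 0 UMIs in all 3 tumours. Of the 10 macrophage and monocyte genes 6 were at 0 in both aCD40 tumours, and Ly6c2 supplied 156 of the list's 182 UMIs in tumour 1 and 10 of 14 in tumour 2. Ly6c2, a surface antigen of monocytes that was also present in N1a, was at 917 and 604 CPM in N1b cells, against 1697 and 2361 CPM in N1a cells. Of the 7 dendritic cell genes only Cd74 was found, with 18 and 1 UMIs. Cells with at least 3 UMIs of a second type's list were 31 of 148 and 2 of 14 in N1b, but 1 and 0 when Ly6c2 was not counted.

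**Figure D2:**
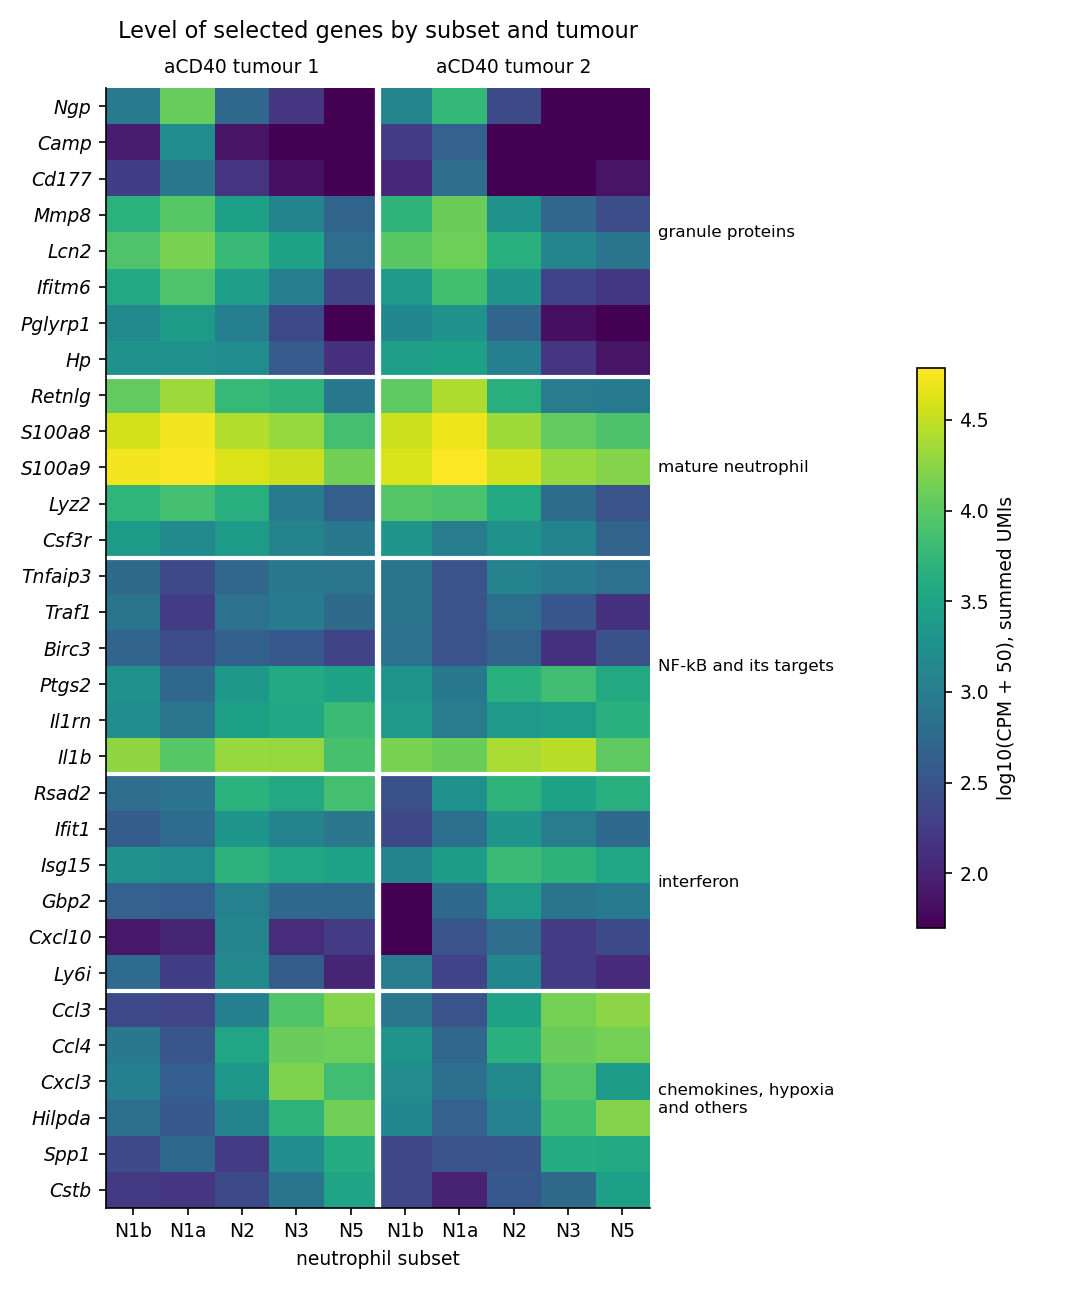
Level of 31 genes in N1b, N1a, N2, N3 and N5 cells of aCD40 tumour 1 (left block) and aCD40 tumour 2 (right block), as log10 of CPM + 50 from summed UMIs, brighter being higher. N1b sits between N1a and N2 for Ngp, Mmp8, Retnlg and S100a8 in both tumours, and Ccl3, Hilpda and Cstb are brighter in N3 and N5 than in N1b.

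N1b was set against N1a first, the other subset whose name begins with N1. Of 573 genes, 13 were higher in N1b in both aCD40 tumours (2.27%) and 10 were lower (1.75%). In tumour 1 alone the counts were 30 (5.24%) and 13 (2.27%). The genes that were lower included granule proteins, and the genes that were higher included targets and regulators of NF-kB. The balance depended on the scaling, with 10 higher and 13 lower under TMM factors and 9 higher and 16 lower under RLE factors.

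Of the specific-granule list, 8 of 10 genes had enough UMIs; 4 were lower in N1b and none was higher, with a median log2 ratio of -1.26 against 0.07 for all 573 genes. Ngp (chr9:110419747-110423012 in GRCm38, plus strand), which encodes neutrophilic granule protein, was at 858 and 1207 CPM in N1b cells of aCD40 tumours 1 and 2, against 11600 and 5613 CPM in N1a cells. This is 13.5-fold lower in tumour 1 (interval 11.4 to 16.1) and 4.65-fold lower in tumour 2 (2.87 to 7.91). After thinning to 300 UMIs, Ngp was found in 16.7% and 23.1% of N1b cells and in 69.9% and 73.3% of N1a cells; in T cells of the same tumours it was found in 2.13% and 0.787%. Without thinning the shares were 35.8% and 50% in N1b and 83.6% and 81.2% in N1a.

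Camp (chr9:109847379-109849617, minus strand), the cathelicidin antimicrobial peptide, had 6 and 2 UMIs in N1b cells, at 35.3 and 121 CPM, against 1544 and 420 CPM in N1a cells. The tumour 1 difference was 43.8-fold (19.8 to 121), while the interval in tumour 2 (0.694 to 33.6) held 1. Cd177, a surface partner of proteinase 3 on neutrophils, was 6.46-fold lower in tumour 1 and 9.56-fold lower in tumour 2 (1.39 to 411, from 1 UMI in N1b). Mmp8, neutrophil collagenase, was more evenly spread. It was at 4657 and 5071 CPM in N1b, against 9572 and 12380 CPM in N1a, which is 2.06-fold (1.88 to 2.24) and 2.44-fold (1.90 to 3.17) lower. Lcn2, the siderophore-binding granule protein, stayed within 2-fold of N1a in both tumours, at 8567 and 9841 CPM in N1b and 14709 and 12800 CPM in N1a.

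The other 6 lower genes were Ifitm6, Dstn, Lipg, Aldh2, Ckap4 and Cmpk2. Ifitm6, a member of the interferon-induced transmembrane family, was 2.44-fold and 3.19-fold lower. It belongs to a family of similar genes, so its reads may be shared with relatives. Exons of Aldh2 overlap those of Gm42879, and whether the counting used strand is not given in the sources used here. All 10 had the same direction in both tumours by the rule itself, and in 2 of them, Camp and Cmpk2, the tumour 2 interval held a ratio of 1.

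On the other side, Traf1 (chr2:34941750-34961772, minus strand), an adaptor of TNF-family receptors that include CD40, was at 717 and 724 CPM in N1b cells, against 126 and 262 CPM in N1a cells. The ratio was 5.70 in tumour 1 (3.50 to 9.78) and 2.76 in tumour 2 (0.906 to 10.01). Ptgs2, the inducible cyclooxygenase of prostaglandin synthesis, was at 1834 and 1932 CPM in N1b, against 484 and 839 CPM in N1a, with ratios of 3.79 (2.93 to 4.96) and 2.30 (1.23 to 4.49). Tnfaip3, the A20 inhibitor of NF-kB signalling, was at 529 and 724 CPM in N1b and at 192 and 262 CPM in N1a. Il1rn, the interleukin-1 receptor antagonist, was at 1564 and 2234 CPM in N1b and at 756 and 944 CPM in N1a.

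Ly6i, a small lipid-anchored Ly6 antigen, had the largest mean ratio of the 13, with 547 and 966 CPM in N1b against 139 and 157 CPM in N1a. Its ratios were 3.93 (2.43 to 6.64) and 6.14 (1.76 to 32.9), and its reads may be shared with other Ly6 genes. Among chemokines Ccl4 was at 817 and 1932 CPM in N1b against 278 and 472 CPM in N1a, and Cxcl3 was at 1017 and 1509 CPM against 365 and 629 CPM. The remaining 6 were Mpeg1 (perforin-2), the niacin receptor gene Hcar2, Id2, Apbb1ip, the apoptosis inhibitor Birc3 and Ltb (lymphotoxin beta), with ratios of 2.02 to 3.28 in tumour 1 and 2.01 to 4.60 in tumour 2. In 5 of the 13 (Traf1, Tnfaip3, Id2, Birc3 and Ltb) the tumour 2 interval held 1.

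The NF-kB list as a whole had a median log2 ratio of 0.77 over the 10 of its 13 genes with enough UMIs, of which Tnfaip3 and Birc3 were called, and 1 under RLE factors. This held against N1a only. Against N2, N3 and N5 the list's medians were -0.41, -0.66 and -0.11, where all genes had -0.06, 0.01 and -0.24. Summed over the list, NF-kB genes were at 28075 and 30850 CPM in N1b, against 14901 and 18570 CPM in N1a, and Cxcl2, which was not called, supplied 18192 and 19138 CPM of the sums in N1b and 10102 and 11541 CPM of those in N1a. Nfkbia, which encodes the inhibitor IkB-alpha, was 2.68-fold higher in tumour 1 (2.32 to 3.11) but 1.60-fold in tumour 2 (1.07 to 2.41), short of the rule. Il1b, interleukin-1 beta, was also short of the rule, with 18797 and 14731 CPM in N1b against 9552 and 12432 CPM in N1a. Without the pool 4 libraries, 8 genes were higher and 3 lower of 221; without pool 3, 5 were higher and 4 lower of 354; and without pool 2, 21 were higher and 12 lower of 554. In the same order, 3, 5 and 9 of the higher genes were among the 13, and 3, 3 and 7 of the lower among the 10. Leaving out cells with at least 3 UMIs of a second type's list gave 8 higher and 3 lower of 388. Of these 8 higher genes 5 were among the 13. When Ly6c2 was not counted as a marker, 15 were higher and 10 lower of 573. With each cell thinned to 300 UMIs, 3 of 131 genes were higher, none of them among the 13. Another 3 were lower, all among the 10.

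**Figure D3:**
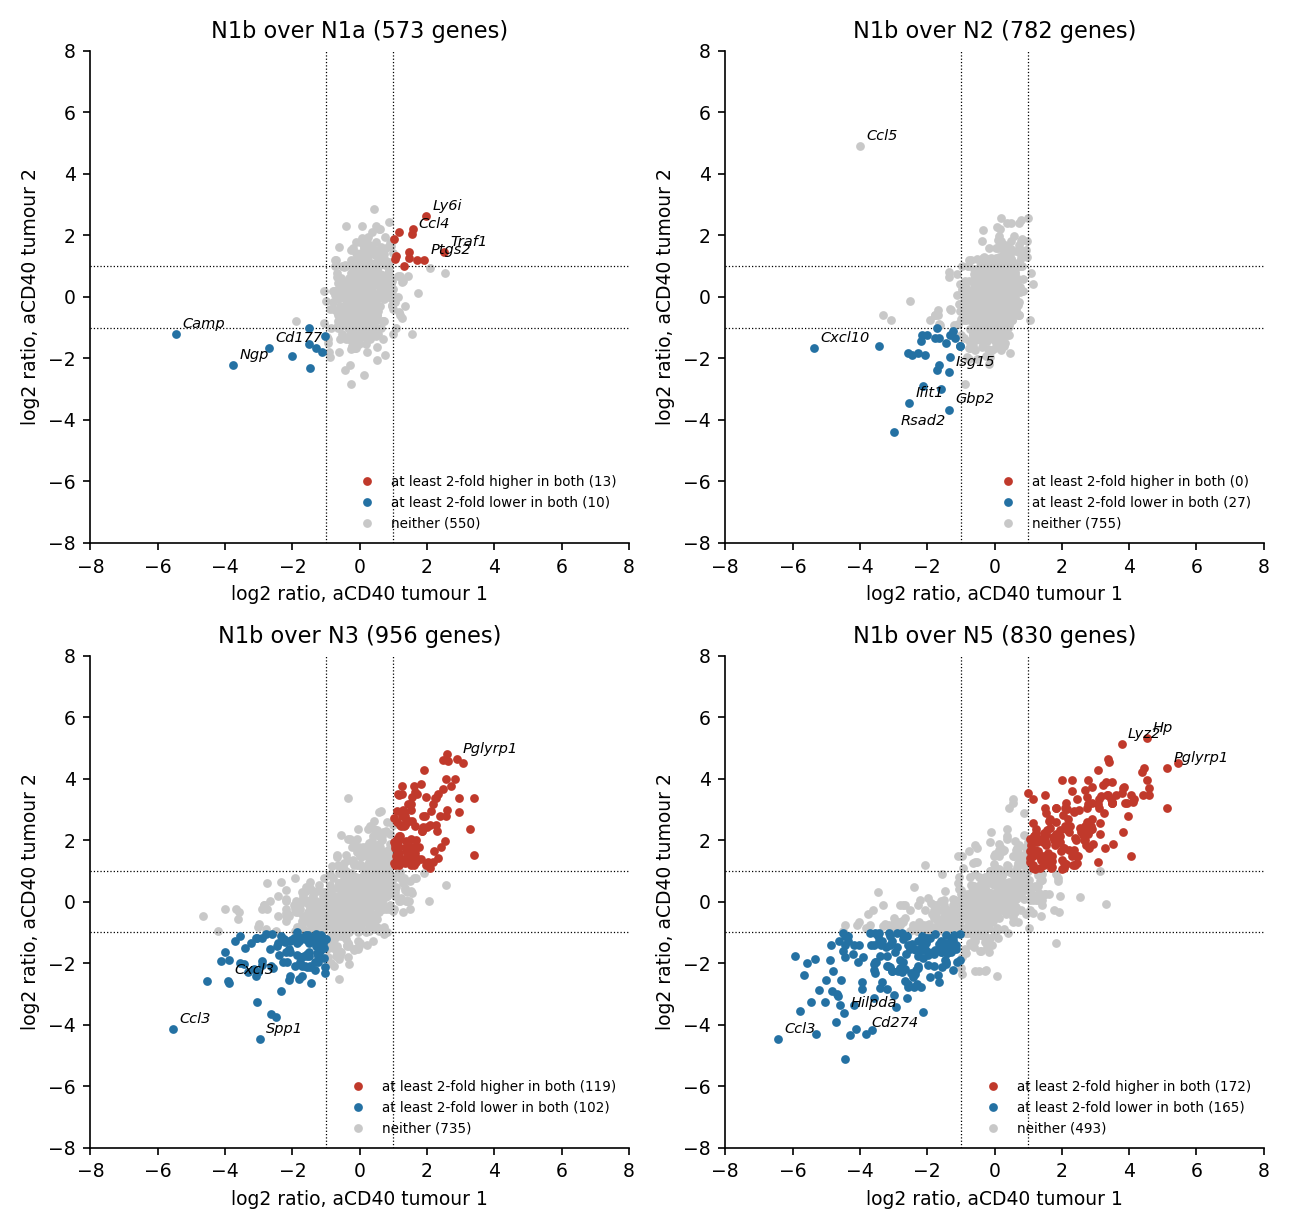
Log2 ratio of N1b over N1a, N2, N3 and N5 in aCD40 tumour 1 (horizontal) and aCD40 tumour 2 (vertical), 1 point per gene with enough UMIs; red and blue mark genes at least 2-fold higher or lower in both tumours, dotted lines the 2-fold limits. Calls number 13 and 10 against N1a, 0 and 27 against N2, 119 and 102 against N3, and 172 and 165 against N5.

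Against N2, the difference was one-sided, and 17 of its 27 genes stood on the 2 interferon lists. Of 782 genes none was higher in N1b in both aCD40 tumours (0%), and 27 were lower (3.45%). In tumour 1 alone 3 were higher (0.384%) and 50 lower (6.39%). TMM factors gave 0 higher and 35 lower, and RLE factors 2 higher and 27 lower. All 4 comparisons use the same N1b cells, so their results are not independent of each other. The type I interferon list had 30 of 41 genes with enough UMIs, of which 12 were lower and none higher, with a median log2 ratio of -1.22 against -0.06 for all genes. The interferon gamma list had 5 of 8 lower, with a median of -1.94. Both medians stayed below that of all genes under TMM factors (-1.40 and -2.12, against -0.24) and RLE factors (-1.26 and -1.98, against -0.10).

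Rsad2 (chr12:26442746-26456452, minus strand), which encodes the antiviral enzyme viperin, was at 582 and 241 CPM in N1b cells of aCD40 tumours 1 and 2, against 4575 and 5032 CPM in N2 cells. It was 7.86-fold lower in tumour 1 (6.39 to 9.77) and 20.8-fold lower in tumour 2 (7.99 to 77.4). Thinned to 300 UMIs, 18.1% and 15.4% of N1b cells held an Rsad2 UMI, against 50.3% and 63.4% of N2 cells, against 0 of 47 T cells in tumour 1, which allows up to 6.38%, and 1.57% of T cells in tumour 2. In the untreated tumour Rsad2 had 1 UMI among the 2145 of 4 N1b cells and 55 among the 7408 of 14 N2 cells.

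Ifit1, which binds viral RNA lacking cap methylation, was at 353 and 181 CPM in N1b against 2055 and 1970 CPM in N2, 5.83-fold (4.44 to 7.76) and 10.9-fold (3.56 to 54.1) lower. Isg15, a ubiquitin-like modifier, was at 1887 and 1147 CPM in N1b against 4827 and 6245 CPM in N2, 2.56-fold (2.25 to 2.91) and 5.44-fold (3.40 to 9.23) lower. Ifit3 was 4.37-fold and 7.41-fold lower; its near copy Ifit3b was also called, and reads may be split between them. The remaining type I genes called were Ifit2, Isg20, Oasl1, Ifi47, Ddx58, Xaf1 and Slfn5.

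Promoters of some of these genes carry the classical interferon-stimulated response element, and 3 of those are shown. It was searched here as GAAA, any 2 bases and GAAA again on both strands in the 250 bases before the RefSeq start (GRCm38.p6). Of the 27 lower genes 25 had a promoter in the RefSeq table, and 11 of these (44%) held the element, against 46 of 630 (7.30%) of the genes compared with N2 that matched the table and 821 of 27025 (3.04%) of all genes in it. The 11 were Cxcl10, Gbp2, Gbp7, Ifi207, Ifit1, Ifit3, Ifit3b, Irgm1, Isg15, Rsad2 and Slfn5. This is a count of letters, not of bound sites. An NF-kB motif and a CCAAT enhancer binding protein motif were also searched. Among the 25 they stood in 48% and 4%, against 63.2% and 10% of the genes compared with N2. Of genes higher than in N1a, 7 of 10 held the NF-kB motif, against 60.8% of the genes compared. The CCAAT motif stood in 16.1% and 16.4% of genes higher than in N3 and N5, against 9.35% and 10% of those compared. The stretches below run from 200 to 51 bases before the start, 5′ to 3′ on the gene's strand, with the element on either strand in capitals; the 3 genes were chosen after their values were seen.

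Rsad2, chr12:26456503-26456652, minus strand: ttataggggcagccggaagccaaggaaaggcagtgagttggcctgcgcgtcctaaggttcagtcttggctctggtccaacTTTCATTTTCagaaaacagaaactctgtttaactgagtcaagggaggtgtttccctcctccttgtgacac
Ifit1, chr19:34640689-34640838, plus strand: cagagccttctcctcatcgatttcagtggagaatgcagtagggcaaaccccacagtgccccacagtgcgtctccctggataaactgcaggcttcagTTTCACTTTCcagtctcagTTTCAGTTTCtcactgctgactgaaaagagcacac
Isg15, chr4:156200869-156201018, minus strand: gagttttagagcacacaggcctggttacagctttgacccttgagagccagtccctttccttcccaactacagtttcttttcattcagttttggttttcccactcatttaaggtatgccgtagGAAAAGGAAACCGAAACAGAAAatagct

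Rsad2 held 1 match, Ifit1 held 2, and Isg15 held 3 that overlap and form a single run of capitals. The first match began 120, 104 and 78 bases before the start in Rsad2, Ifit1 and Isg15.

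Genes more typical of interferon gamma were also lower. Cxcl10, a ligand of CXCR3 that draws T cells, had 5 and 0 UMIs in N1b cells against 257 and 19 in N2 cells, 41.5-fold lower in tumour 1 (17.6 to 129) and at least 3.18-fold lower in tumour 2 against a floor of 3 UMIs per subset. Gbp2, a guanylate-binding protein, was at 423 CPM in N1b and 1082 CPM in N2 of tumour 1, and in tumour 2 it had 0 UMIs in N1b against 76 in N2, at least 12.7-fold lower. Cd274, which encodes PD-L1, was at 218 CPM in N1b against 660 CPM in N2 of tumour 1, and had 0 UMIs in N1b against 48 in N2 of tumour 2, at least 8.03-fold lower. Exons of Cxcl10 overlap those of Art3 and exons of Cd274 those of AC119228.1 on the other strand.

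The lower genes also included the chemokines Ccl3 and Ccl4. Ccl3 was at 188 and 785 CPM in N1b, against 1039 and 2940 CPM in N2, 5.52-fold (3.80 to 8.28) and 3.75-fold (2.09 to 7.29) lower. Of its 32 UMIs in N1b of tumour 1, 25 lay in 1 of the 4 libraries. Ccl4 was at 817 and 1932 CPM in N1b, against 3265 and 4517 CPM in N2. Both tumours thus had Ccl4 lowest in N1a, then N1b, then N2, though the N1a and N2 ratios share the N1b cells, and the 32 Ccl4 UMIs in N1b of tumour 2 came from 3 of 14 cells.

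Granule genes lay in the other direction but short of the rule: the specific-granule list had a median log2 ratio of 0.92 over N2 with none of 6 genes called, and Ngp was at 858 and 1207 CPM in N1b against 498 and 212 CPM in N2. In 6 of the 27 lower genes (Clec4n, Gbp7, Ezr, Ddx58, Nampt and Xaf1) the tumour 2 interval held 1. Without pool 4, 6 of 305 genes were lower, all of them among the 27, and 4 and 5 genes were higher without pool 1 and without pool 2.

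N3 and N5 were far from N1b, in genes of opposite kinds. Against N3, 119 of 956 genes were higher in N1b (12.4%) and 102 lower (10.7%), or 152 (15.9%) and 214 (22.4%) in tumour 1 alone. Against N5, 172 of 830 were higher (20.7%) and 165 lower (19.9%), or 208 (25.1%) and 300 (36.1%) in tumour 1 alone. This balance rests on plain totals. TMM factors gave 53 higher and 215 lower against N3 and 117 and 274 against N5, and RLE factors 91 and 137 against N3 and 120 and 271 against N5. TMM moved the median log2 ratio of all genes to -0.58 against N3 and -0.74 against N5, where plain totals gave 0.01 and -0.24, so ratios below are best read against those medians.

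A set of 3 lists held 15 of the 119 genes higher than in N3 and 19 of the 172 higher than in N5, those of specific granules, the NADPH oxidase and the mature circulating neutrophil. The specific-granule list had 5 of 6 genes higher than in N3 and 5 of 6 higher than in N5 (Ngp, Lcn2, Mmp8, Hp and Pglyrp1 in each), with medians of 3.12 and 4.13, and the same number was called under TMM and RLE factors. Pglyrp1, a peptidoglycan-binding antibacterial protein, had 246 and 22 UMIs in N1b, against 21 and 1 in N3 and 0 and 0 in N5. It was 7.36-fold higher than in N3 of tumour 1 (4.71 to 12.1), and at least 35.1-fold and 20.3-fold higher than in N5 of tumours 1 and 2 against a floor of 3 UMIs per subset. Hp, the haemoglobin-binding haptoglobin, was at 1893 and 2596 CPM in N1b, against 337 and 106 CPM in N3 and 82.3 and 21.8 CPM in N5. Lyz2, lysozyme, was at 5268 and 9056 CPM in N1b, against 889 and 565 CPM in N3 and 384 and 261 CPM in N5.

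The NADPH oxidase list, the enzyme complex of the oxidative burst, had 4 of 5 genes higher than in N3 (Cybb, Cyba, Ncf1 and Rac2) and these 4 were also higher than in N5. Under TMM factors 2 of 5 were called against N3. The mature-neutrophil list had 6 of 16 genes higher than in N3 and 9 of 15 higher than in N5, where 1, Cd24a, was lower; under TMM factors 3 were higher and 2 lower against N3. Cxcr2, the receptor through which neutrophils are drawn to CXC chemokines, and Csf3r, the G-CSF receptor, were called higher than in N5 but not than in N3. Cxcr2 was at 2728 and 1872 CPM in N1b against 2116 and 1749 CPM in N3 and 412 and 523 CPM in N5.

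**Figure D4:**
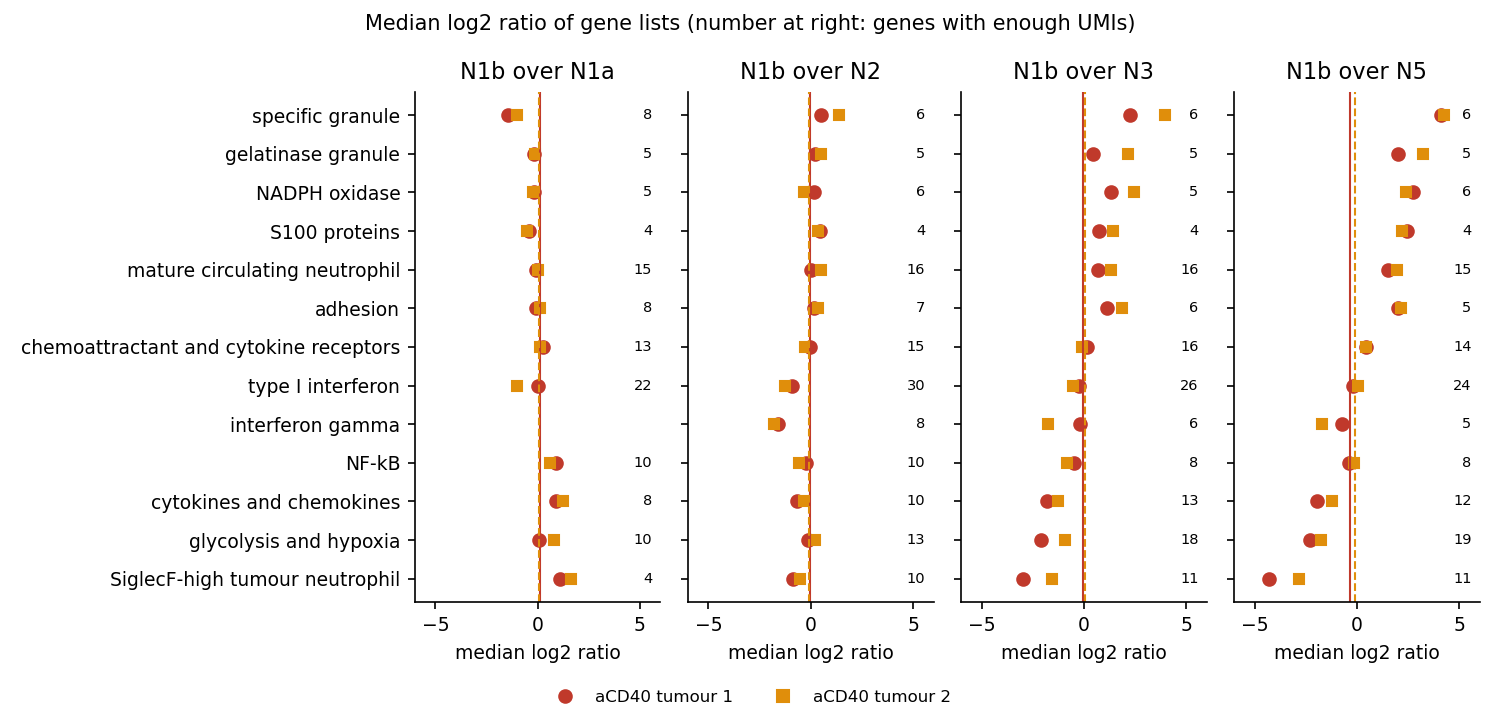
Median log2 ratio of N1b over N1a, N2, N3 and N5 for 13 gene lists with at least 3 genes measured, circles for aCD40 tumour 1 and squares for aCD40 tumour 2; vertical lines give the median of all genes compared, solid for tumour 1 and dashed for tumour 2. The specific-granule list lies left of the line against N1a (-1.26 over both tumours) and right of it against N3 (3.12) and N5 (4.13), and the SiglecF-high list lies far left against N3 (-2.45) and N5 (-3.54).

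Another 3 lists, which share genes, held 15 of the 102 genes lower than in N3 and 20 of the 165 lower than in N5: cytokines and chemokines, glycolysis and hypoxia, and genes reported for SiglecF-high tumour neutrophils, a long-lived tumour-promoting state in mice. Of the SiglecF-high list 7 of 11 genes were lower than in N3 and 9 of 11 lower than in N5, with none higher. Of the glycolysis and hypoxia list 8 of 18 were lower than in N3, and 11 of 19 lower than in N5 with Slc2a3 higher. Ccl3 was 46.8-fold lower than in N3 of tumour 1 (32.9 to 68.9) and 17.6-fold in tumour 2 (10.2 to 33.1), and 85.9-fold (60.5 to 126) and 22.3-fold (12.9 to 42.0) lower than in N5. Hilpda, a hypoxia-induced lipid droplet protein, was at 594 and 1328 CPM in N1b, against 5037 and 7033 CPM in N3 and 13101 and 16319 CPM in N5. Spp1, osteopontin, was at 206 and 181 CPM in N1b, against 1601 and 3994 CPM in N3 and 4019 and 3660 CPM in N5; its exons overlap those of Gm42793. Cstb, the cathepsin inhibitor cystatin B, was at 118 and 181 CPM in N1b, against 749 and 530 CPM in N3 and 3087 and 2702 CPM in N5.

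Cxcl2, the neutrophil-drawing chemokine, was abundant in all subsets, lowest in N1a and higher in N3 and N5 than in N1b. It was at 18192 and 19138 CPM in N1b, against 10102 and 11541 CPM in N1a, 20943 and 29646 CPM in N2, 39684 and 52502 CPM in N3 and 45243 and 48760 CPM in N5. Interferon genes went both ways against N5. Of 24 type I genes 4 were lower (Ifit1, Rsad2, Ifi204 and Ifi47) and 5 higher (Irf7, Ifitm2, Ifitm3, Slfn1 and Ifi27l2a), but 1 higher and 9 lower under TMM factors. Over all genes compared with N5, 19.9% were lower and 20.7% higher, so the plain counts do not set this list apart. Its median log2 ratio was -0.17, against -0.24 for all genes. The dissociation stress list, of early-response and heat shock genes, had 2 of 11 genes higher and 3 lower than in N3, and 3 of 13 higher and 5 lower than in N5. Over all genes 12.4% were higher and 10.7% lower than in N3, and 20.7% and 19.9% than in N5. The list's median log2 ratio was 0.01 against N3, the same as for all genes, and -0.63 against N5, where all genes had -0.24. Hsp90aa1, a heat shock chaperone, was lower in N1b than in both N3 and N5. Hspa1b had 0 and 0 UMIs in N1b against 51 and 162 in N5, at least 39.7-fold and 19.5-fold lower, and it is nearly identical to Hspa1a, with which reads may be shared. Without pool 4, 29 genes were higher and 21 lower than in N3 of 333, and 40 higher and 43 lower than in N5 of 291.

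N1b cells were not alike among themselves, and neither were those of the other subsets. In the 126 N1b cells of aCD40 tumour 1 with at least 500 UMIs, thinned to that number, the ratio of variance to mean over cells had a median of 1.09 over 747 genes, where 1 is counting noise, and it passed 2 in 27 genes. The 10 genes with the largest ratio were Fth1, Thbs1, Retnlg, Ccl4, Cstdc4, Cxcl3, G0s2, Ccl6, Cxcl2 and Nfkbia, and 9 of the 10 were the same after thinning to 300 UMIs. The ratio of Fth1 was 5.093 in N1b, against 4.873, 5.843, 5.942 and 4.855 in N1a, N2, N3 and N5. For Thbs1 it was 4.527, against 3.293, 5.242, 3.31 and 4.282, and for Retnlg 4.507, against 3.501, 5.546, 5.088 and 2.368. Such spread was thus not particular to N1b. Retnlg averaged 5.26 UMIs per thinned cell (SD 4.87, highest 21), and 15.1% of cells had none, whereas in N1a it averaged 10.8 UMIs (SD 6.15) and none of 106 cells was without it. Fth1, the heavy chain of the iron store ferritin, averaged 5.98 UMIs (SD 5.52, highest 38) in N1b. Thbs1, thrombospondin 1, was absent from 41.3% of N1b cells and reached 16 UMIs. Nfkbia averaged 2.46 UMIs (SD 2.63) in N1b and 0.896 (SD 1.499) in N1a. Ccl4 was found in 11.9% of these N1b cells and reached 7 UMIs. In aCD40 tumour 2, with 12 such cells, the same ratio ran from 0.727 for Cstdc4 to 7.73 for Retnlg over the 10 genes, with 4.17 for Thbs1, 2.50 for Fth1 and 1.67 for Nfkbia.

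**Figure D5:**
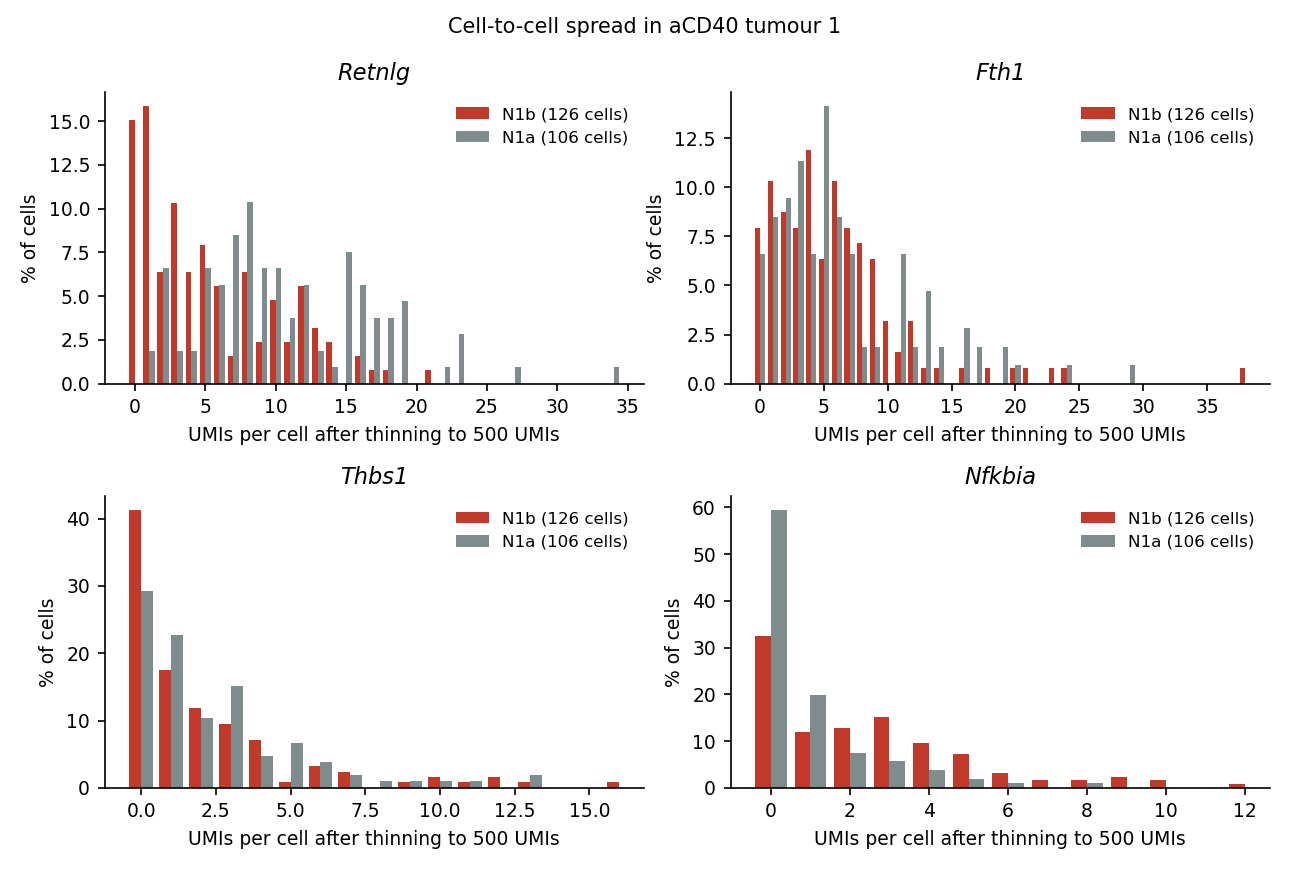
UMIs per cell of Retnlg, Fth1, Thbs1 and Nfkbia in 126 N1b cells (red, left bar of each pair) and 106 N1a cells (grey) of aCD40 tumour 1, each cell thinned to 500 UMIs; the vertical axis is the share of cells. For Retnlg, 15.1% of N1b cells and 0% of N1a cells have none, and for Nfkbia 32.5% of N1b and 59.4% of N1a cells.

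N1b cells of the 2 treated animals were compared with each other, with a call where the ratio was at least 2-fold and its counting interval left out 1. Of 1312 genes 20 were higher (1.52%) and 35 lower (2.67%) in aCD40 tumour 1 than in aCD40 tumour 2, with a median log2 ratio of -0.24. The intervals treat 1 cell's UMIs as independent, and tumour 2 has 14 cells. Tgfbi, an extracellular matrix protein, was at 776 CPM in tumour 1 and 181 CPM in tumour 2, and Wfdc17, a secreted antiprotease-like protein of myeloid cells, was at 3010 CPM in tumour 1 and 785 CPM in tumour 2. Gbp2 was at 423 CPM in tumour 1 and had 0 UMIs in tumour 2.

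Among the lower genes Ccl3 was at 188 CPM in tumour 1 and 785 CPM in tumour 2. mt-Co2, a mitochondrially encoded oxidase subunit, was at 588 CPM in tumour 1 and 1570 CPM in tumour 2. The SiglecF-high list had 4 of 9 genes lower and the glycolysis and hypoxia list 3 of 15, with Hilpda counted on both, and neither had a gene higher. Among the 4 were Ccl3 and Ccl4, whose 13 and 32 UMIs in tumour 2 came from 4 and 3 of 14 cells. Ccl5 had 2 UMIs in tumour 1 and 45 in tumour 2, but 44 of the 45 came from 1 cell. TMM factors turned the balance to 49 higher and 16 lower. Without pool 4, 5 were higher and 31 lower, of which 1 and 6 were among the genes above; without pool 3, 12 were higher; and without pool 1 or pool 2, 23 were lower in each case.

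The 4 N1b cells of the untreated tumour allow levels but hardly comparisons. S100a8 was at 38071 and 35136 CPM in N1b cells of the aCD40 tumours, against 20979 CPM in the untreated tumour (95% Poisson interval 15302 to 28072). Without the pool 1 library, which held 1 of the 4 cells, the untreated value was 35939 CPM (25675 to 48939), level with the aCD40 tumours, and without the pool 2 library that held 2 cells it was 13240 CPM. Retnlg was at 11154 and 10324 CPM in the aCD40 tumours, against 2331 CPM in the untreated tumour (757 to 5440, from 5 UMIs), and 1722 to 2788 CPM with 1 library left out. Il1b was at 18797 and 14731 CPM in the aCD40 tumours, against 27040 CPM in the untreated tumour (20532 to 34955), and 23360 to 29268 CPM with 1 library left out. Ngp, Camp and Mmp8 had no UMI among the 2145 of the untreated cells, which allows up to 1399 CPM each. For Mmp8 this limit lies below its 4657 and 5071 CPM in the aCD40 tumours. Lcn2, another specific-granule gene, did have 6 UMIs in the untreated tumour, all in 1 cell. Mitochondrially encoded transcripts took 0.255% and 0.519% of N1b UMIs in the aCD40 tumours, against 1.40% in the untreated tumour, and their part in these differences was not tested.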

How the data were processed

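The deposited table holds whole-number UMI counts per gene for single CD45+ cells, with 22631 gene columns, and a second deposited table gives the authors' cell type and subset of each cell. Reads were handled with bcl2fastq and STAR on GRCm38, per the submitters' processing notes; the counter, annotation, use of strand, cell filters, doublet handling and clustering method: not given in the sources used here. No cells were filtered and no doublet caller was run here. The 12 libraries of 3 tumours held 3961141 UMIs in all.

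UMIs were summed per subset and tumour and scaled to CPM by plain totals, with exact Poisson intervals for levels, conditional binomial intervals for ratios and Clopper-Pearson intervals for shares, all at 95%. A value of 0 allows up to 3 counts of the total. Intervals cover counting error only. Subset names were taken as deposited, and no test was made because the names were given to the same cells and the arms hold 2 and 1 tumours. TMM and RLE factors came from edgeR 4.0.16 in R 4.3.3. The rest ran in Python 3.11.15 with numpy 2.4.6, pandas 2.3.3, scipy 1.17.1 and matplotlib 3.10.9. Gene positions are those of GENCODE M21 on GRCm38, and promoters are RefSeq's on GRCm38.p6.

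Genes named were Retnlg and S100a8, the 10 called genes with the largest mean log2 ratio in each direction of a comparison, the 3 most abundant and all called members of each gene list, and the 10 genes with the largest variance to mean ratio among N1b cells, of which the text gives the main ones; a few genes are not reported here. Ltb, Clec4n, Ezr, Nampt and Ifi207 fall outside this rule and were named after their values were seen, to complete a count. N1b and the gene lists were chosen with earlier results of these data known. The calling rule was checked on simulated counts with 200 changed genes of known fold. The shares called are of changed genes that met the count minimum in the simulated counts, and any that fell under it were left out. For the N1a comparison 24 genes 8-fold lower and 57 genes 8-fold higher met it. Genes truly 8-fold lower in N1b were called in 100% of these cases for N1a (569 genes met the minimum in all). For N2 the share was 87.9% (782), for N3 46.4% (1066) and for N5 59.4% (981). Those truly 8-fold higher were called in 100% of cases in all 4 comparisons, and those 4-fold higher and 4-fold lower in 90% and 39.4% for N3 and 89.8% and 67.5% for N5, so lower genes were missed more often there. The simulated counts carried counting error only, with no variation between cells or animals, so the shares called can overstate what the rule finds in these data. Alternatives were other scalings, count minimums, thinning to 300 UMIs, means over cells, omission of cells with markers of a second type, tumour 1 alone, and omission of each pool.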

Additional observations from a re-analysis of the deposited data

Results flagged for a closer look

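In 30 groups of 4 libraries, 3 had 1 library far from the others, where chance alone flags about 1 in 20. N1b made up 9.83% of CD45+ cells in 1 library of aCD40 tumour 1, against 12.9 to 13.1% in the other 3. Its 95% exact binomial interval, 6.94 to 13.4%, holds the values of the other 3. Rsad2 was at 778 CPM in N1b cells of 1 library of aCD40 tumour 1 (39 UMIs), against 489 to 506 CPM in the other 3 (16 to 22 UMIs). Ccl3 was at 572 CPM in N1b cells of 1 library of aCD40 tumour 1, against 30.5 to 92.0 CPM in the other 3.

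Ccl5, a T cell-drawing chemokine, went opposite ways in the 2 treated animals: its log2 ratio of N1b over N2 was -3.99 in aCD40 tumour 1 and 4.90 in aCD40 tumour 2, and the difference was not tested. Of the 45 Ccl5 UMIs in N1b of tumour 2, 44 lay in 1 cell.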

How the results depend on the processing

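No paired test was made, because no comparison rests on a test. The subset ratios were taken within each aCD40 tumour. The 2 labelled groups of pools share no number, and shares within pools 1 and 2 are given above. No ratio of a named called gene changed direction under the alternatives run, and of 863 recomputed gene values 745 moved by less than the SD between the aCD40 tumours and 118 by more. Of the gene counts, as higher and lower in N1b, those that moved by over 1.5 times are given next, and why they moved was not tested except where an alternative compares fewer genes. RLE factors gave 16 lower than N1a, 2 higher than N2 and 271 lower than N5; TMM gave 53 higher and 215 lower than N3, 274 lower than N5, and 49 higher and 16 lower for tumour 1 over tumour 2. Totals without S100a8 and S100a9 gave 2 higher than N2. Doubling the count minimum, which compares fewer genes, gave 6 higher and 3 lower than N1a, 54 higher than N3, 98 higher than N5, and 19 lower for tumour 1 over tumour 2. Without a minimum, 20 were higher than N1a, 8 than N2, 632 than N3 and 676 than N5. Tumour 1 alone gave 30 higher than N1a, 3 higher and 50 lower than N2, 214 lower than N3 and 300 lower than N5. Thinning each cell to 300 UMIs, which compares fewer genes, gave 3 and 3 for N1a, 1 and 8 for N2, 33 and 30 for N3, and 56 and 52 for N5. None of the 3 higher than in N1a was among the 13 reported, with 131 genes compared. Without cells holding markers of a second type, counts were 8 and 3 for N1a, and 4 were higher than N2; with Ly6c2 not counted, an alternative chosen after seeing the data, 15 and 10 for N1a, 0 and 28 for N2, 121 and 102 for N3, and 174 and 162 for N5. Means over cells gave 6 lower than N1a and 5 higher than N2. Leaving out 1 pool at a time gave 5 to 21 higher and 3 to 12 lower than N1a, 0 to 5 and 6 to 31 for N2, 29 to 123 and 21 to 94 for N3, 40 to 179 and 43 to 147 for N5, and 5 to 22 and 23 to 38 for tumour 1 over tumour 2. The median UMIs of untreated N1b cells ran from 389 to 1032, the last without pool 2. Leaving out single libraries of the untreated tumour was also chosen after seeing the data. The shares of N1b among neutrophils kept within their binomial intervals in all cells with at least 300 UMIs, without N4 and without second-type cells. Depth limits aCD40 tumour 2 and the untreated tumour most, at 16564 and 2145 N1b UMIs.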

Other observations

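Several gene groups held few or no calls between N1b and N1a or N2, where few of all genes were called. Over all genes 2.27% were higher and 1.75% lower than in N1a, and 0% higher and 3.45% lower than in N2. The group counts against N1a and N2 are near these shares and set no group apart. Against N3 the shares of all genes were 12.4% and 10.7%, and against N5 they were 20.7% and 19.9%. None of the chemoattractant and cytokine receptor genes was called against N1a (13 measured), and 1 of 15, Ccrl2, was lower than in N2. MHC class I genes had none called against N1a (6), N2 (10) or N3 (7) on plain totals, with 1 lower than in N1a under RLE and 1 lower than in N2 under TMM factors, and H2-D1 and Tapbp were higher than in N5 on plain totals but not under TMM or RLE factors. NADPH oxidase genes had none called against N1a (5) or N2 (6).

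Adhesion genes were higher against the N3 and N5 subsets: 3 of 6 against N3 (Selplg, Itgb2 and Itgal) and 4 of 5 against N5, among them Selplg, Itgam and Itgb2. Selplg is a selectin ligand and the others named are integrin chains. Over all genes 12.4% were higher than in N3 and 20.7% higher than in N5. Under TMM factors 2 of 6 adhesion genes were higher than in N3 and 4 of 5 higher than in N5. Of 15 transcription factor genes 2, Fosb and Nr4a1, were higher than in both N3 and N5. Jun, Atf3 and Bhlhe40 were lower than in both, and all 5 are early-response or stress-response genes. Cebpd, Spi1 and Klf2 were also higher than in N5, and Klf6 lower. The 2 higher than in N3 are near the 12.4% of all genes, and 3 were lower, where 10.7% of all genes were. Against N5, 5 were higher and 4 lower, where 20.7% and 19.9% of all genes were. TMM factors gave 1 higher and 6 lower than in N3, and 3 and 5 against N5. The median of that list over N5 was 0.25 on plain totals but -0.25 under TMM and -0.18 under RLE factors. Ribosomal protein genes had none called against N1a, N2 or N3 on plain totals, and 1 lower than in N3 under TMM and RLE factors. Against N5, 1 of 38 was lower on plain totals, 7 under TMM and 8 under RLE factors.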
